A study of Homo sapiens with 12 samples.

Results

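The ligands, receptors, SMADs and latent-complex proteins of the TGF-beta and BMP pathways were followed across 4 arms of C4.2B cells, a line of castration-resistant human prostate cancer that descends from LNCaP. The members were the protein-coding genes whose symbols belong to the BMP, BMPR, GDF, TGFB1 to TGFB3, TGFBR1 to TGFBR3, INHB, ACVR, SMAD and LTBP families, and 52 of the 58735 genes in the deposited table met that rule. The DMSO arm received vehicle throughout. AKTi was ipatasertib at 0.25 µM for 24 hours, EZH2i was tazemetostat at 1 µM for 6 days and for the same 24 hours, and the combination joined both schedules. All arms, vehicle included, spent the 24 hours in medium with charcoal-stripped serum, which is low in steroid hormones. Each arm had 3 replicate plates (A, B and C) of this cell line, so the p-values below measure the spread between these plates, which may be largely technical.

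TGF-beta, activin and GDF11-type ligands bind pairs of type II and type I receptor kinases, which phosphorylate SMAD2 and SMAD3, whereas BMP ligands act through SMAD1, SMAD5 and SMAD9. Either group joins SMAD4 and enters the nucleus, and SMAD6 and SMAD7 are inhibitory members that the pathway itself induces. TGF-beta is secreted in a latent complex bound to an LTBP protein and must be released before it can bind. In epithelial cells TGF-beta restrains growth and can favour a mesenchymal state. EZH2 is the methyltransferase that places the repressive mark H3K27me3, and AKT is a kinase that promotes growth and survival downstream of PI3K.

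Libraries held 14133755 to 22276417 counts. The 10 luminal prostate markers were all detected in every library, and their summed level was 935.5 to 967.4 CPM per kb (counts scaled to library size and gene length) in DMSO, 1439 to 1463 with AKTi, 1523 to 1580 with EZH2i and 1972 to 2014 with the combination. The summed level of 10 stromal markers was 2.10 to 2.93 in DMSO, 2.73 to 3.597 with AKTi, 6.83 to 7.19 with EZH2i and 5.63 to 6.67 with the combination, with 1 to 4 of these genes at 0 in a library. Of 6 basal markers, KRT5 was at 0 in every library, and 1 to 5 were at 0 in a library. Their summed level was 0.39 to 0.44 in DMSO, 0.26 to 0.31 with AKTi, 0.67 to 0.91 with EZH2i and 0.69 to 0.90 with the combination. DST, the basal marker that was tested, changed on the log2 scale by -0.67 with AKTi, 0.55 with EZH2i and 0.60 with the combination. These lists moved with the arms, and their part in the results below was not tested. In bulk RNA a change in the number of cells of a type cannot be told apart from a change in RNA per cell.

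Of the 52 members, 37 passed the filter on low counts and were tested, and 15 were not. The untested genes were BMP2, BMP3, BMP4, BMP5, BMP10, BMP15, GDF1, GDF2, GDF3, GDF5, GDF6, GDF7, GDF10, INHBC and ACVRL1. BMP3, BMP5, BMP10, BMP15, GDF1, GDF2 and GDF3 had 0 counts in all 12 libraries. GDF1 shares its transcribed region with CERS1, so its 0 may reflect how shared reads were assigned. BMP4, a ligand of the BMP branch, had 0, 0 and 0 counts in the DMSO libraries, 1, 5 and 1 with AKTi, 2, 4 and 2 with EZH2i and 7, 9 and 7 with the combination. It was at 0 in DMSO only, and its counts were too low for the test.

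Levels of different genes were compared as CPM per kb, averaged over an arm. GDF15, a divergent stress-induced ligand, was the highest member in DMSO at 57.4, followed by SMAD5 at 13.4, the activin type I receptor ACVR1B at 9.59 and the latent-complex gene LTBP3 at 8.96. At the other end stood the TGF-beta ligands and their own type II receptor, with TGFB1 at 0.0119, TGFBR2 at 0.0544, TGFB2 at 0.112 and TGFB3 at 0.14. TGFB1 overlaps the far more abundant genes HNRNPUL1 and CCDC97 on the other strand, and without a stated strand setting its low level may reflect how overlapping reads were assigned. SMAD2 has a deposited length of 36366 bases, which lowers its level per kb relative to the other SMADs.

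**Figure D1:**
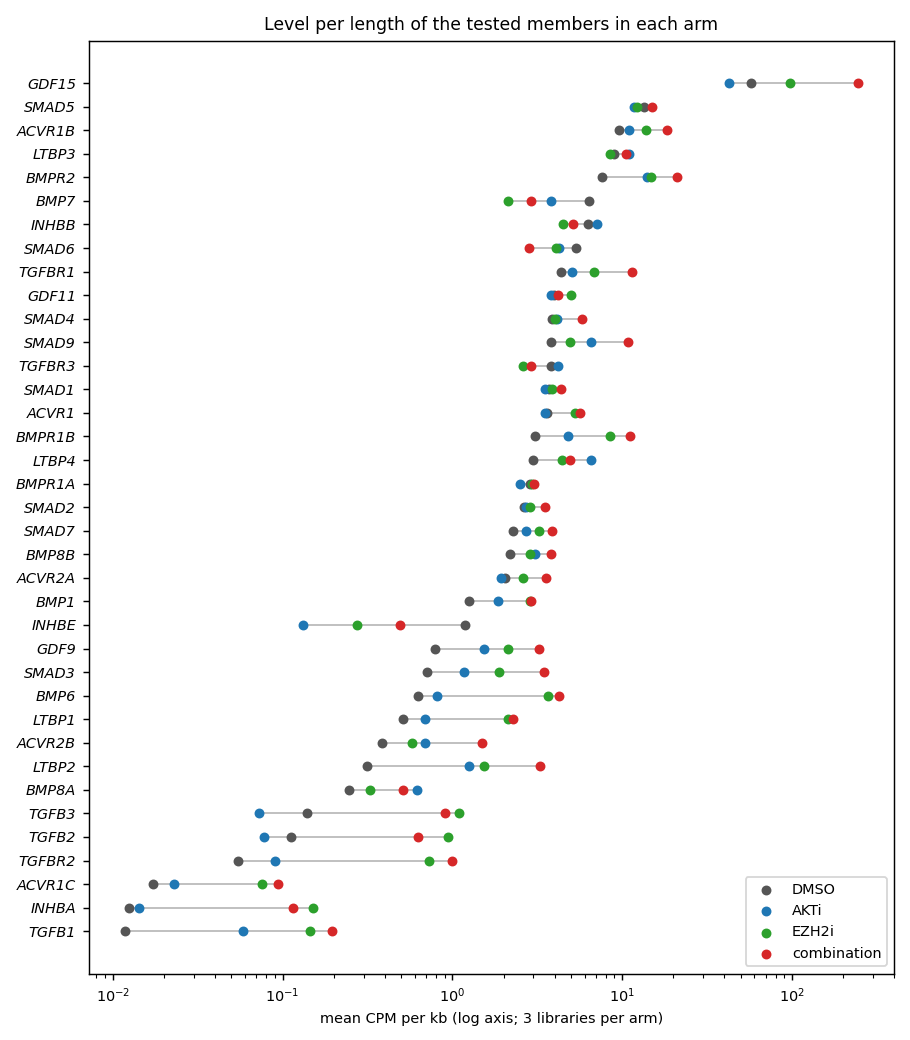
Mean CPM per kb (log axis) of the 37 tested members in each arm, 3 libraries per arm, ordered by the level in DMSO; grey lines join the lowest and highest arm. GDF15 lay highest in every arm, from 42.6 with AKTi to 244 with the combination, and TGFB1, INHBA and ACVR1C lay lowest in DMSO.

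With the combination, 29 of the 37 tested members rose and 5 fell against DMSO at an adjusted p under 0.05, in edgeR's quasi-likelihood test over all 16646 genes tested. Of all genes tested, 73.2% were called in this comparison, 38.0% higher and 35.2% lower, so calls were common everywhere. Their median log2 fold change was 1.19, against 0.062 for all genes tested. EZH2i alone raised 25 members and lowered 5 (64.1% of all genes called, 32.6% higher and 31.5% lower), with a member median of 0.54 against 0.030. AKTi alone raised 14 and lowered 5 (42.5% called, 20.6% higher and 21.9% lower), with medians of 0.21 and 0.007. A call of at least 2-fold in either direction was made for 20 members with the combination (33.9% of all genes), of which 18 were higher, for 15 with EZH2i (21.2%), of which 13 were higher, and for 3 with AKTi (5.64%), of which 2 were higher. The 3 comparisons share the DMSO libraries. Members such as TGFBR2, the TGF-beta ligands, INHBA and ACVR1C passed the filter through the arms in which they were high. These counts therefore describe the tested members and not all 52. Scaling by library size alone gave 7574 genes higher and 4749 lower for the combination against DMSO, in place of 6320 and 5866, and moved the all-gene median to 0.26.

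**Figure D2:**
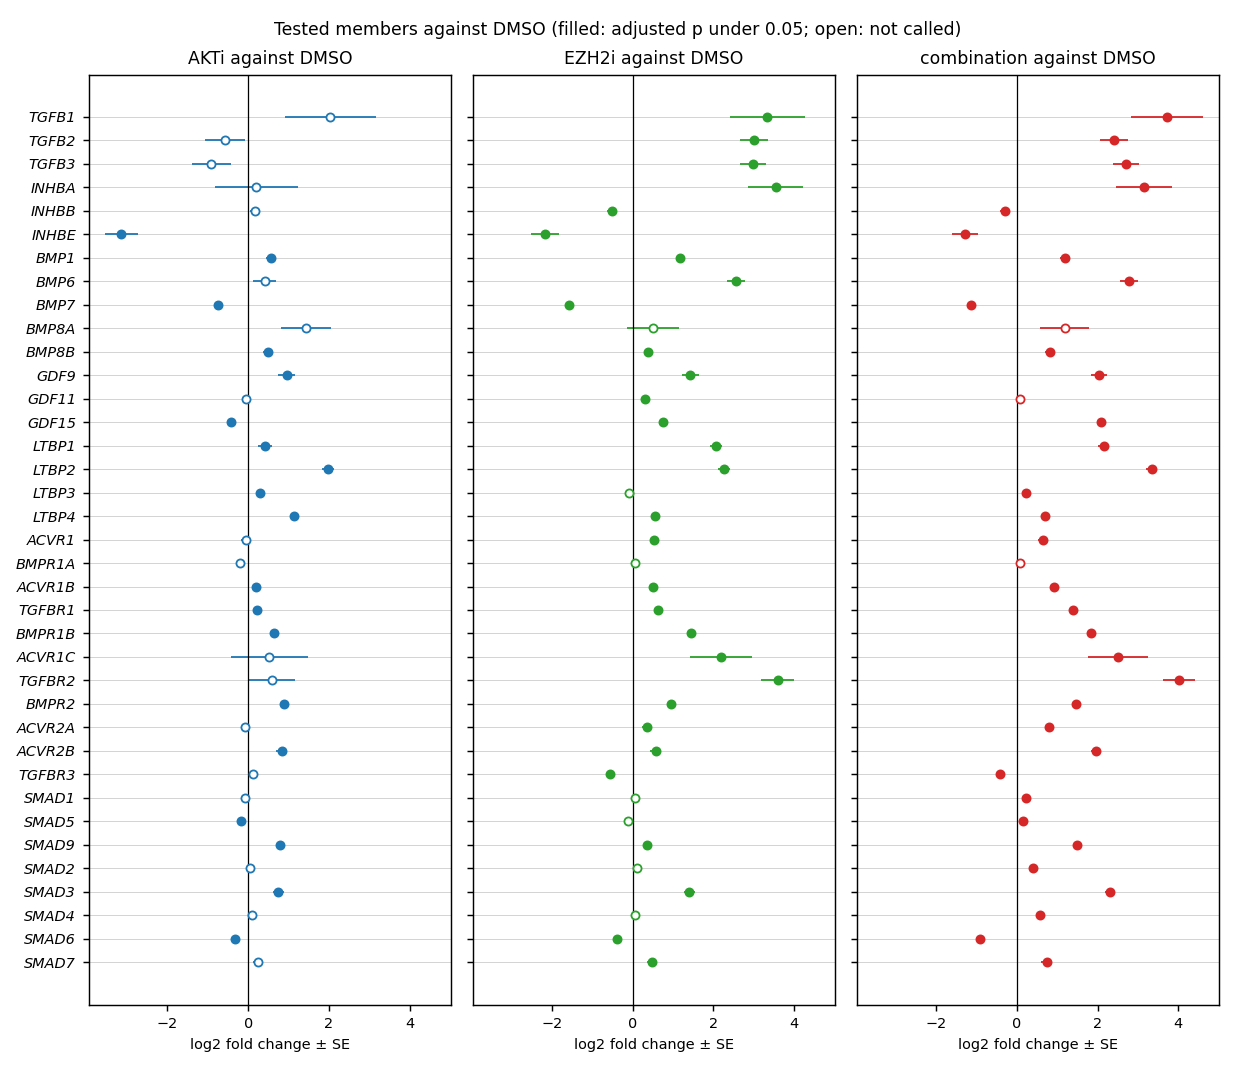
Log2 fold change ± SE against DMSO of the 37 tested members, ordered by role from ligands to SMADs, for AKTi, EZH2i and the combination; filled points passed an adjusted p under 0.05. Most filled points lay right of 0 in the EZH2i (25 of 30) and combination (29 of 34) panels, and INHBE and BMP7 lay left of it in all panels.

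The TGF-beta ligands rose with EZH2i and stayed high with the combination. They passed the filter on low counts through the arms with EZH2i, which favours a rise. In each case the AKTi libraries overlapped DMSO or were not called. The 250 bases before the first RefSeq start of TGFB2 and TGFB3 are shown with those of their receptor TGFBR2, the LTBP family gene LTBP2 and GDF15, since these 5 genes carry the main patterns described here. The sequences are from RefSeq on GRCh38.p14, written 5′ to 3′ on the gene's strand, and capitals mark a searched motif.
TGFB2, chr1:218345086-218345335, plus strand: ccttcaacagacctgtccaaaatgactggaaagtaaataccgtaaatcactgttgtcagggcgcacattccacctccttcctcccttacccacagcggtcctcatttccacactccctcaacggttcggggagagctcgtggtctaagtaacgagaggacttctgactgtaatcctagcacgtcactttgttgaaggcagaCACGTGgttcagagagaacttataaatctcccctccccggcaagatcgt
TGFB3, chr14:75983012-75983261, minus strand: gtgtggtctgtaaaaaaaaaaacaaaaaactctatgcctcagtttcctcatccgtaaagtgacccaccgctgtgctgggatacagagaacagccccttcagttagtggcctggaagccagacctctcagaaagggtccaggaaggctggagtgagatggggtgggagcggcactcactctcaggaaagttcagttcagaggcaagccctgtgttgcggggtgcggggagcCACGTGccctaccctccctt
TGFBR2, chr3:30606106-30606355, plus strand: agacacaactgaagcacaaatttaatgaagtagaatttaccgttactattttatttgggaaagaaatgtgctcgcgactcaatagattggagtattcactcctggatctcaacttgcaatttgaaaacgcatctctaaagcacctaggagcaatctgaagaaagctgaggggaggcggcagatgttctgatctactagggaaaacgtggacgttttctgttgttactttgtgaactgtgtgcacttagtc
LTBP2, chr14:74612238-74612487, minus strand: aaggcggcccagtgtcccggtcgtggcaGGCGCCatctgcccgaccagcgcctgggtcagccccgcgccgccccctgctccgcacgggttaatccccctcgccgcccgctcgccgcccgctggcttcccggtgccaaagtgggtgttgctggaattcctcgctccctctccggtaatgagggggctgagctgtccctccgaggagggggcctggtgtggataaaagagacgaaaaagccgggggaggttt
GDF15, chr19:18385908-18386157, plus strand: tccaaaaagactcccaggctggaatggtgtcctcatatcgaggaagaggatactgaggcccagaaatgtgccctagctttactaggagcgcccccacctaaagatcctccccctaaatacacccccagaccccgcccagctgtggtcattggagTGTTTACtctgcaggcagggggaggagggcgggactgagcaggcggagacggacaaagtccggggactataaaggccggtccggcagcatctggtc
The capitals are CACGTG (an E-box) in TGFB2 and TGFB3, GGCGCC (a motif of BMP-responsive SMADs) in LTBP2, and TGTTTAC in GDF15, the reverse complement of the forkhead motif GTAAACA. TGFBR2 held none of the motifs searched in this stretch. The LTBP2 stretch held 23 CpG sites, TGFB2 held 11, GDF15 held 9, TGFBR2 held 7 and TGFB3 held 6. RefSeq starts need not be the starts used in C4.2B cells, and they differ from the ends of the deposited gene intervals: the starts of GDF15 and LTBP2 lie inside them and those of TGFB2, TGFB3 and TGFBR2 outside.

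TGFB2, one of the 3 TGF-beta ligands (ENSG00000092969, chr1:218346235-218444619 in the hg38 table), was at 3.35, 11.02 and 14.3 normalized counts in the DMSO libraries, 4.80, 8.14 and 6.92 with AKTi, 72.2, 86.3 and 83.1 with EZH2i and 53.0, 68.9 and 38.1 with the combination. All EZH2i and combination libraries lay above all DMSO and AKTi libraries. The log2 fold change against DMSO was 3.004 ± 0.34, adjusted p = 9.34e-10 with EZH2i and 2.41 ± 0.35, adjusted p = 1.41e-07 with the combination, and -0.58 ± 0.50, adjusted p = 0.377 with AKTi.

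TGFB3 (ENSG00000119699, chr14:75958099-75982991) was the TGF-beta ligand with the highest level per length in DMSO. It was at 11.2, 13.5 and 9.55 normalized counts in the DMSO libraries, 9.61, 6.98 and 1.15 with AKTi, 108, 72.8 and 88.5 with EZH2i and 70.7, 86.1 and 65.2 with the combination. Again the arms with EZH2i stood apart from the arms without it. Its log2 fold change was 2.98 ± 0.31, adjusted p = 1.46e-10 with EZH2i and 2.71 ± 0.32, adjusted p = 1.25e-09 with the combination, and -0.92 ± 0.49, adjusted p = 0.131 with AKTi. EZH2i and AKTi differed directly for both ligands, by 3.58 ± 0.38, adjusted p = 3.59e-10 for TGFB2 and 3.90 ± 0.36, adjusted p = 1.62e-11 for TGFB3, in a contrast added after the data were seen. The combination did not differ from EZH2i by the test for either ligand (adjusted p = 0.068 and 0.373). TGFB3 overlaps IFT43 on the other strand, and IFT43 was not called in any comparison with DMSO.

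TGFB1 was barely detected, with 1, 0 and 1 counts in the DMSO libraries, 3, 2 and 3 with AKTi, 9, 2 and 15 with EZH2i and 7, 14 and 12 with the combination. Of the genes it overlaps on the other strand, HNRNPUL1 was not called against DMSO in any arm and CCDC97 moved by -0.31 with the combination. TMEM91, another such gene, rose by 1.36 with the combination (adjusted p = 0.023 in edgeR), from 17 counts over the DMSO arm to 47. It was not called with EZH2i (0.073) or AKTi (0.16). The part of these genes in the TGFB1 values was not tested. Against the 2 counts of the whole DMSO arm, the depth-corrected ratio was 11.9 with EZH2i (95% counting interval 2.98 to 103) and 15.2 with the combination (3.88 to 130). The interval covers counting error only. Both calls passed (adjusted p = 0.00203 and 0.000367), and the AKTi ratio of 4.64 had an interval of 0.926 to 44.8.

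The activin and inhibin beta subunits split. INHBA, the subunit of activin A, had 1, 2 and 2 counts in the DMSO libraries, 2, 1 and 2 with AKTi, 8, 34 and 27 with EZH2i and 21, 24 and 7 with the combination. Every library with EZH2i exceeded every library without it, at low counts. INHBA also passed the filter through the arms with EZH2i, which favours a rise. The ratio to DMSO was 12.6 with EZH2i (95% counting interval 5.16 to 40.1) and 9.55 with the combination (3.84 to 30.7), and edgeR's adjusted p was 2.11e-05 and 0.00013.

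INHBB, the subunit of activin B and the highest of the group per length, was at 334, 313 and 361 normalized counts in the DMSO libraries, 323, 355 and 451 with AKTi, 255, 245 and 215 with EZH2i and 257, 283 and 283 with the combination. It moved the other way, with every EZH2i and combination library below every DMSO library. The log2 change was -0.51 ± 0.12, adjusted p = 0.000239 with EZH2i and -0.30 ± 0.11, adjusted p = 0.0184 with the combination. The combination's call was lost without DMSO replicate C or combination replicate A (adjusted p up to 0.0856) and under library size or upper quartile scaling (up to 0.425).

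INHBE, which encodes the subunit of activin E (ENSG00000139269, chr12:57452323-57459280), was at 72.6, 44.1 and 61.3 normalized counts in the DMSO libraries, 6.00, 6.98 and 6.92 with AKTi, 16.7, 17.5 and 6.86 with EZH2i and 24.4, 23.0 and 26.1 with the combination. All treated libraries lay below all DMSO libraries, and AKTi had the lowest mean. INHBE changed by -3.14 ± 0.40, adjusted p = 4.69e-08 with AKTi, -2.16 ± 0.35, adjusted p = 1.34e-06 with EZH2i and -1.28 ± 0.32, adjusted p = 0.000568 with the combination. Adding EZH2i to AKTi raised it by 1.86 ± 0.44, adjusted p = 0.000324.

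Among the BMP ligands, BMP6 and BMP7 changed in opposite directions. BMP6 (ENSG00000153162, chr6:7726797-7881422) was at 25.7, 39.2 and 22.3 normalized counts in the DMSO libraries, 26.4, 53.5 and 32.3 with AKTi, 190.1, 121 and 192 with EZH2i and 188, 197 and 203 with the combination. The EZH2i and combination libraries were all above the others, while AKTi overlapped DMSO. BMP6 changed by 2.57 ± 0.22, adjusted p = 1.7e-12 with EZH2i and 2.79 ± 0.22, adjusted p = 7.67e-14 with the combination, and AKTi gave 0.41 ± 0.28, adjusted p = 0.257.

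BMP7, the BMP ligand with the highest level per length in DMSO (ENSG00000101144, chr20:57168748-57266629), was at 564, 525 and 623 normalized counts in the DMSO libraries, 337, 314 and 375 with AKTi, 202, 179 and 196 with EZH2i and 283, 259 and 238 with the combination. The arms did not overlap, with DMSO highest and EZH2i lowest. BMP7 fell with AKTi (-0.74 ± 0.10, adjusted p = 1.54e-07), with EZH2i (-1.57 ± 0.11, adjusted p = 1.11e-15) and with the combination (-1.14 ± 0.10, adjusted p = 1.64e-12). It was higher with the combination than with EZH2i by 0.44 ± 0.11, adjusted p = 0.00119. BMP8B rose by 0.82 with the combination on the log2 scale, and BMP8A was not called in any comparison. These are near-identical copies, so reads may have been split or lost between them. BMP8B also overlaps the more abundant PPIE on the other strand, which moved by -0.56 with the combination.

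GDF15 (ENSG00000130513, chr19:18374731-18389176) had the most counts of any member. It was at 2053, 1923 and 1991 normalized counts in the DMSO libraries, 1386, 1458 and 1582 with AKTi, 3621, 2992 and 3437 with EZH2i and 8651, 8981 and 7695 with the combination. No arms overlapped, with AKTi below DMSO, EZH2i above it and the combination above all others. GDF15 fell by 0.43 ± 0.069 with AKTi (adjusted p = 2.56e-06) and rose with EZH2i (0.75 ± 0.066, adjusted p = 1.6e-12) and with the combination (2.09 ± 0.066, adjusted p = 8.6e-26). The combination exceeded AKTi 5.72-fold and EZH2i 2.52-fold.

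GDF9 (ENSG00000164404, chr5:132861181-132866884), best known as an oocyte ligand, was at 38.0, 44.1 and 46.2 normalized counts in the DMSO libraries, 106, 64.0 and 79.6 with AKTi, 87.8, 143 and 117 with EZH2i and 172, 167 and 189 with the combination. The combination libraries lay above all others, and the AKTi and EZH2i libraries overlapped. Its log2 change was 0.95 ± 0.21, adjusted p = 0.000414 with AKTi, 1.43 ± 0.20, adjusted p = 1.04e-07 with EZH2i and 2.03 ± 0.20, adjusted p = 1.17e-11 with the combination. GDF9 overlaps the abundant gene UQCRQ on the other strand. The strand setting of the counting is not given in the sources used here, and UQCRQ moved by -0.73 with the combination. GDF11, a ligand close to myostatin, rose with EZH2i by 0.32 and was not called with the combination (0.078).

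All 4 LTBP genes rose with the combination, where 38.0% of all genes tested were higher. LTBP2 (ENSG00000119681, chr14:74498170-74612378) was at 41.3, 41.6 and 58.9 normalized counts in the DMSO libraries, 189.7, 188 and 192 with AKTi, 230.1, 218 and 249 with EZH2i and 488, 503 and 485 with the combination. AKTi libraries lay just below EZH2i libraries, and the combination lay above both. Its log2 change was 1.97 ± 0.15, adjusted p = 1.89e-13 with AKTi, 2.26 ± 0.14, adjusted p = 2.24e-16 with EZH2i and 3.34 ± 0.14, adjusted p = 1.6e-22 with the combination, or 10.1-fold. LTBP2 is unusual in the family in that it is not known to bind latent TGF-beta.

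LTBP1 (ENSG00000049323, chr2:32946972-33399509), which holds latent TGF-beta in the matrix, was at 51.4, 63.7 and 70.8 normalized counts in the DMSO libraries, 85.3, 90.7 and 75.0 with AKTi, 258, 234 and 288 with EZH2i and 267, 277 and 291 with the combination. The arms with EZH2i stood above those without it. EZH2i raised it by 2.06 ± 0.15, adjusted p = 7.76e-15, and the combination by 2.15 ± 0.15, adjusted p = 9.3e-16. The AKTi call (0.42 ± 0.17, adjusted p = 0.0457) was lost when most single libraries were left out (adjusted p up to 0.205).

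LTBP4 (ENSG00000090006, chr19:40592883-40629818) was at 418, 394 and 394 normalized counts in the DMSO libraries, 827, 948 and 868 with AKTi, 635, 585 and 557 with EZH2i and 618, 758 and 599.6 with the combination. AKTi gave the highest values, above the combination in every library. Its log2 change was 1.13 ± 0.089, adjusted p = 4.86e-13 with AKTi, 0.56 ± 0.09, adjusted p = 1.3e-06 with EZH2i and 0.71 ± 0.089, adjusted p = 5.65e-09 with the combination. LTBP3, the highest of the 4 per length, was at 1549.8, 1546 and 1500.4 normalized counts in the DMSO libraries, 1769, 1899 and 1949 with AKTi, 1693, 1253 and 1386 with EZH2i and 1778, 1933 and 1698 with the combination. Its changes were small, at 0.29 ± 0.074, adjusted p = 0.00148 with AKTi and 0.24 ± 0.073, adjusted p = 0.00443 with the combination, and EZH2i was not called (-0.088).

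BMP1 is a metalloprotease, not a ligand, that cleaves procollagens and the BMP antagonist chordin. It was at 128, 165 and 174 normalized counts in the DMSO libraries, 223, 213 and 255 with AKTi, 372, 333 and 365 with EZH2i and 348, 372 and 356 with the combination. EZH2i and the combination overlapped each other and lay above AKTi, which lay above DMSO. BMP1 changed by 0.55 ± 0.12, adjusted p = 0.000358 with AKTi, 1.18 ± 0.12, adjusted p = 3.67e-11 with EZH2i and 1.19 ± 0.12, adjusted p = 1.9e-11 with the combination.

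Of the 7 type I receptors, 6 were tested, and 5 of these rose with EZH2i and 5 with the combination. One of them, ACVR1C, passed the filter through the arms with EZH2i, which favours a rise. Its EZH2i call was lost without DMSO replicate C or EZH2i replicate B (adjusted p up to 0.0926 in edgeR). Of all genes tested, 32.6% and 38.0% were higher in these comparisons. TGFBR1 (ENSG00000106799, chr9:99104038-99154192), the kinase partner of TGFBR2, was at 516, 504 and 474 normalized counts in the DMSO libraries, 592, 565 and 568 with AKTi, 732, 798 and 784 with EZH2i and 1419, 1225 and 1266 with the combination. The combination libraries were well above the EZH2i libraries, which were above AKTi and DMSO. Its log2 change was 0.64 ± 0.076, adjusted p = 3.14e-09 with EZH2i and 1.39 ± 0.074, adjusted p = 5.87e-19 with the combination. The AKTi change was small (0.21 ± 0.079, adjusted p = 0.0306) and was lost when any 1 AKTi library, or DMSO replicate B or C, was left out (adjusted p up to 0.129).

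BMPR1B (ENSG00000138696, chr4:94757968-95158448), a BMP type I receptor, was at 302, 323 and 345 normalized counts in the DMSO libraries, 529.5, 486 and 489 with AKTi, 786, 969 and 915 with EZH2i and 1246, 1098 and 1134 with the combination. The order was DMSO, AKTi, EZH2i and combination, with no overlap between arms. The log2 change was 0.63 ± 0.091, adjusted p = 4.83e-07, 1.46 ± 0.086, adjusted p = 3.18e-17 and 1.84 ± 0.085, adjusted p = 8.06e-21 in that order of treatments. Its close relative BMPR1A was not called against DMSO in any arm (-0.20, 0.051 and 0.071).

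ACVR1B, the activin type I receptor and the highest receptor per length in DMSO, was at 902, 864 and 951 normalized counts in the DMSO libraries, 1023, 1056 and 1023 with AKTi, 1307, 1252 and 1334 with EZH2i and 1732, 1798 and 1654 with the combination. The arms again followed that order without overlap. The combination raised it by 0.93 ± 0.062, adjusted p = 5.78e-16 and EZH2i by 0.52 ± 0.063, adjusted p = 5.17e-09. ACVR1 rose by 0.64 with the combination, and ACVR1C, at 46 counts over that arm against 7 in DMSO, gave a ratio of 6.04 (95% counting interval 2.71 to 15.8).

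All 4 type II receptors rose with EZH2i and with the combination, where 32.6% and 38.0% of all genes tested were higher. One of them, TGFBR2, passed the filter through the arms with EZH2i, which favours a rise. TGFBR2 (ENSG00000163513, chr3:30606502-30694142), the receptor that binds TGF-beta first, was at 1.12, 3.67 and 7.96 normalized counts in the DMSO libraries, 10.8, 2.33 and 8.08 with AKTi, 47.8, 65.0 and 58.7 with EZH2i and 74.0, 72.7 and 85.2 with the combination. It had at most 10 raw counts in any library without EZH2i, and the arms with EZH2i lay above all of these. The log2 change was 3.59 ± 0.41, adjusted p = 9.01e-10 with EZH2i and 4.02 ± 0.40, adjusted p = 2.04e-11 with the combination, and AKTi was not called (0.59 ± 0.58, adjusted p = 0.444). EZH2i and AKTi differed by 3.004 ± 0.39, adjusted p = 3.71e-08. Leaving out 1 library at a time kept every one of the EZH2i and combination calls for TGFBR2, TGFB2 and TGFB3.

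BMPR2 (ENSG00000204217, chr2:202376936-202567751), the BMP type II receptor and the highest type II receptor per length, was at 1498, 1509.6 and 1497 normalized counts in the DMSO libraries, 2871, 2869 and 2544 with AKTi, 2659, 3117 and 2932 with EZH2i and 4255, 3945 and 4237 with the combination. The single agents overlapped each other, above DMSO and below the combination. Its log2 change was 0.88 ± 0.062, adjusted p = 3.62e-14 with AKTi, 0.95 ± 0.062, adjusted p = 4.9e-16 with EZH2i and 1.47 ± 0.062, adjusted p = 4.66e-22 with the combination.

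ACVR2B (ENSG00000114739, chr3:38453851-38493142), an activin type II receptor, was at 98.3, 109 and 96.3 normalized counts in the DMSO libraries, 192, 191 and 155 with AKTi, 144, 150.4 and 156 with EZH2i and 374, 363 and 439 with the combination. The combination libraries lay above all others, and AKTi and EZH2i overlapped. Its log2 change was 0.83 ± 0.14, adjusted p = 6.63e-06 with AKTi, 0.58 ± 0.14, adjusted p = 0.000429 with EZH2i and 1.96 ± 0.13, adjusted p = 3.39e-16 with the combination. The antisense gene ACVR2B-AS1 rose by 3.22, and without the strand setting reads of the pair cannot be told apart. ACVR2A rose by 0.81 with the combination and overlaps ORC4 on the other strand.

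TGFBR3, or betaglycan, presents TGF-beta2 to the signalling receptors. It was at 543, 508 and 603 normalized counts in the DMSO libraries, 629, 576 and 606 with AKTi, 355, 374 and 403 with EZH2i and 454, 427 and 374 with the combination. It was the receptor that fell, with the EZH2i and combination libraries below the other arms. The change was -0.55 ± 0.091, adjusted p = 2.28e-06 with EZH2i and -0.40 ± 0.09, adjusted p = 0.000159 with the combination, and AKTi was not called (0.13).

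**Figure D3:**
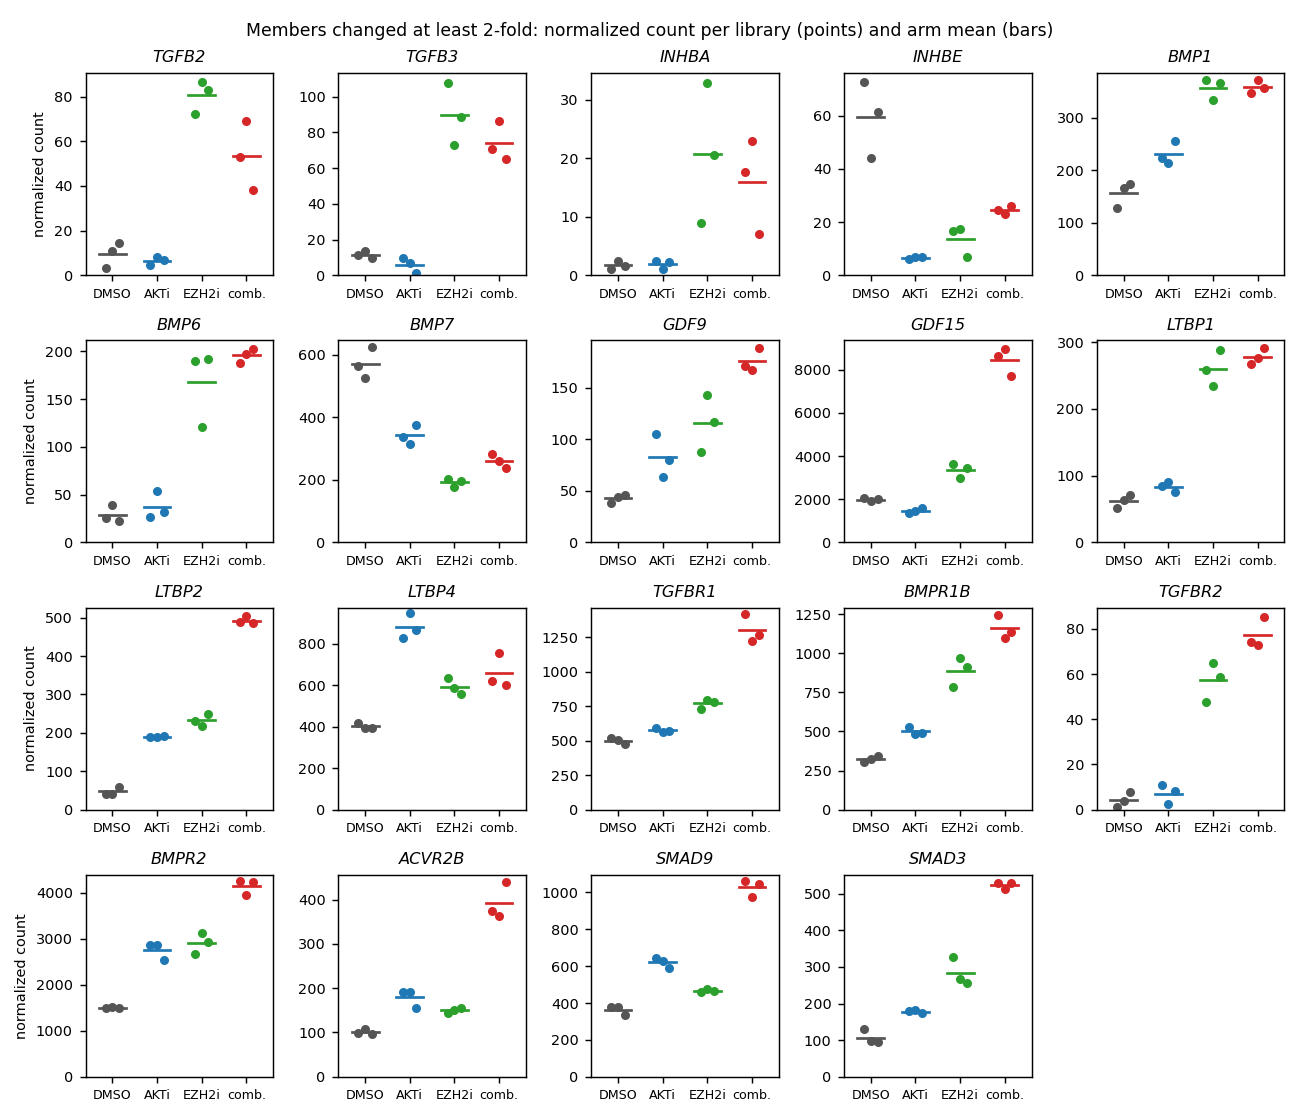
Normalized count per library (points, replicates A to C from left to right) and arm mean (bars) of the 19 members with a call of at least 2-fold and an arm mean of at least 20; each panel has its own axis from 0. TGFB2, TGFB3, TGFBR2 and LTBP1 are high in the 2 arms with EZH2i, GDF15 and TGFBR1 are highest with the combination, and BMP7 and INHBE are highest in DMSO.

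Among the SMADs, SMAD3 had the largest fold change with the combination. SMAD3 (ENSG00000166949, chr15:67063763-67195195), which carries the TGF-beta and activin signal, was at 129.6, 97.9 and 93.9 normalized counts in the DMSO libraries, 180.1, 181 and 173 with AKTi, 327, 268 and 257 with EZH2i and 528, 513 and 530.5 with the combination. The arms rose in the order DMSO, AKTi, EZH2i and combination without overlap. SMAD3 changed by 0.74 ± 0.14, adjusted p = 2.75e-05 with AKTi, 1.41 ± 0.13, adjusted p = 4.42e-12 with EZH2i and 2.30 ± 0.12, adjusted p = 7.34e-19 with the combination. SMAD2, its partner, was at 1617, 1617 and 1562 normalized counts in the DMSO libraries, 1651, 1631 and 1629 with AKTi, 1612, 1778 and 1822 with EZH2i and 2204, 1969.5 and 2143 with the combination. Against DMSO it was called with the combination (0.40 ± 0.06, adjusted p = 2.48e-07).

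SMAD9 (ENSG00000120693, chr13:36844831-36920765), a BMP-branch SMAD, was at 381, 377 and 334 normalized counts in the DMSO libraries, 644, 629 and 591 with AKTi, 462, 476 and 465 with EZH2i and 1060.2, 975 and 1048 with the combination. No arms overlapped, and AKTi stood above EZH2i. The log2 change was 0.78 ± 0.083, adjusted p = 8.68e-10 with AKTi, 0.37 ± 0.083, adjusted p = 0.000203 with EZH2i and 1.503 ± 0.079, adjusted p = 4.31e-19 with the combination, and EZH2i minus AKTi was -0.41 ± 0.08, adjusted p = 4.76e-05. SMAD5, the most abundant SMAD per length, was at 2096, 1881 and 2048 normalized counts in the DMSO libraries, 1760.3, 1812 and 1740.0 with AKTi, 1767, 1952 and 1817 with EZH2i and 2279, 2178 and 2304 with the combination. Its changes were small, -0.18 ± 0.059, adjusted p = 0.0114 with AKTi and 0.17 ± 0.058, adjusted p = 0.0107 with the combination, and these calls were lost when single libraries were left out (adjusted p up to 0.0698, without DMSO replicate A, and 0.301). The AKTi call was also lost under library size or upper quartile scaling (up to 0.0913). SMAD1 rose by 0.23 with the combination, a call also lost when single libraries were left out (up to 0.203).

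SMAD4, the shared partner, was at 723, 866 and 930.5 normalized counts in the DMSO libraries, 932, 889.6 and 875 with AKTi, 840.3, 887 and 903 with EZH2i and 1269.7, 1286 and 1217 with the combination. Every combination library lay above every other library. The combination raised it by 0.58 ± 0.073, adjusted p = 7.4e-09, while AKTi and EZH2i alone were not called.

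The inhibitory SMADs went in opposite directions. SMAD6, which restrains BMP signalling, was at 715, 835 and 716 normalized counts in the DMSO libraries, 545, 654 and 609 with AKTi, 638, 531 and 568 with EZH2i and 334, 459 and 409 with the combination. All treated libraries were below DMSO, and the combination was lowest. The change was -0.32 ± 0.096, adjusted p = 0.00622 with AKTi, -0.38 ± 0.095, adjusted p = 0.000606 with EZH2i and -0.91 ± 0.098, adjusted p = 1.56e-10 with the combination, and the AKTi call was lost without AKTi replicate A (adjusted p = 0.056). SMAD7, which restrains both branches, rose by 0.49 with EZH2i and 0.74 with the combination. The SMAD6 promoter was the 1 of 45 member promoters that held GTCTAGAC, a palindrome of SMAD binding (2.2%, against 0.2% of all promoters). This is a match of letters and was read neither as a bound site nor as a cause.

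For 14 of the 37 tested members the effect of the combination differed from the sum of the single-agent effects, at an adjusted p under 0.05 for the interaction (28.2% of all genes tested were called, 10.7% higher and 17.5% lower). In 10 of them it was higher than the sum and in 4 lower. The member median was 0.022, against -0.049 for all genes. INHBE departed most, by 4.02 ± 0.55, adjusted p = 5.02e-07, since the single agents lowered it more than the combination did. It held 17 counts over the AKTi arm and 42 over the EZH2i arm, so the size of this value rests on low counts. GDF15 exceeded the sum by 1.77 ± 0.093, adjusted p = 2.2e-17 and BMP7 by 1.18 ± 0.15, adjusted p = 9.68e-08. The 4 members below the sum were LTBP4 (-0.98 ± 0.12, adjusted p = 8.47e-08), LTBP2 (-0.89 ± 0.19, adjusted p = 0.000333), BMP1 (-0.55 ± 0.16, adjusted p = 0.0102) and BMPR2 (-0.37 ± 0.086, adjusted p = 0.00114). The other 7 above it were TGFBR1, ACVR2B, ACVR2A, SMAD5, SMAD4, SMAD9 and SMAD2, at 0.24 to 0.55. With single libraries left out, the adjusted p reached 0.0705 for BMP1 (without DMSO replicate A or AKTi replicate C), 0.0809 for ACVR2B, 0.0502 for SMAD9 (without DMSO replicate A) and 0.158 for SMAD2. TGFB2, TGFB3 and TGFBR2 had no interaction call (adjusted p = 0.993, 0.412 and 0.886).

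**Figure D4:**
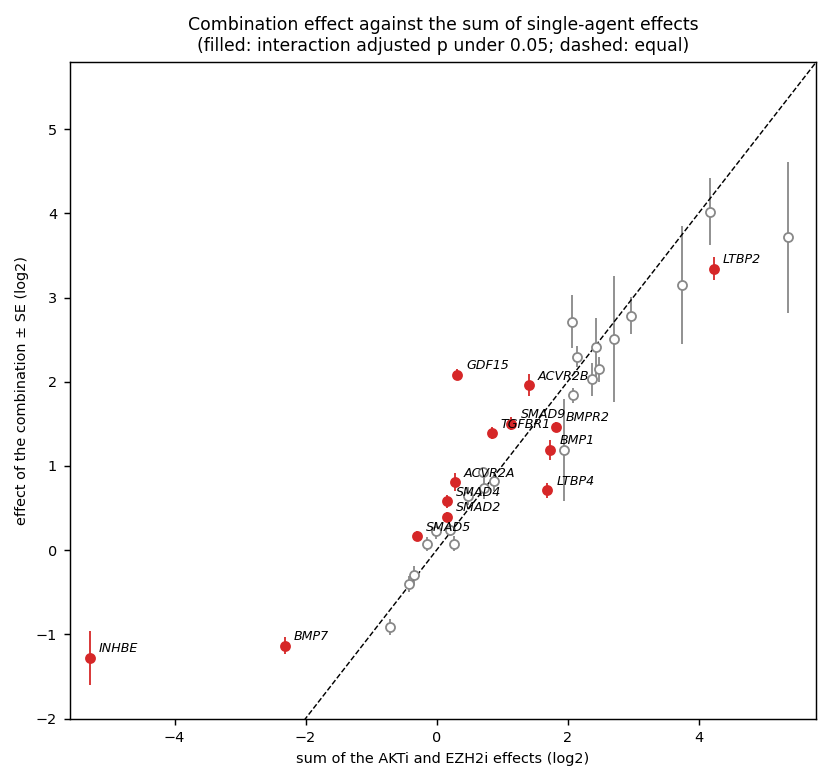
Effect of the combination (log2 ± SE, vertical) against the sum of the AKTi and EZH2i effects (log2, horizontal) for the 37 tested members; the dashed line marks equality and filled, named points have an interaction call. GDF15, BMP7 and INHBE lie above the line, and LTBP2, LTBP4, BMP1 and BMPR2 lie below it.

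Directly compared, the combination exceeded AKTi in 29 members and was below it in 5 (64.2% of all genes called, 32.1% in each direction), with a member median of 0.73 against 0.036. Of these 34 calls, 5 were lost when a single library was left out. They were BMPR1A (without AKTi replicate C, adjusted p = 0.114), SMAD1 (without AKTi replicate B, 0.0734), BMP8B (without AKTi replicate A or C or combination replicate B, up to 0.108), ACVR1C (without AKTi replicate A or C or combination replicate C, up to 0.116) and TGFB1 (without any 1 AKTi library, EZH2i replicate A or combination replicate B or C, up to 0.121), and ACVR1C and TGFB1 were also lost in DESeq2. Against EZH2i it was higher in 17 and lower in 2, SMAD6 and GDF11 (46.7% of all genes called, 21.1% higher and 25.7% lower), with medians of 0.32 and -0.0099. The 4 members that differed at least 2-fold from EZH2i were GDF15, ACVR2B, SMAD9 and LTBP2, all higher (8.13% of all genes). The GDF11 call was lost without combination replicate A (adjusted p = 0.101) and under library size or upper quartile scaling (0.0636 and 0.0793), and the GDF9 call without EZH2i replicate A (0.0587). In the contrast of EZH2i with AKTi, added after the data were seen, 18 members were higher with EZH2i and 6 lower (50.4% of all genes called, 25.4% higher and 25.1% lower), with medians of 0.33 and 0.017. The calls lost were those of BMPR1A (without AKTi or EZH2i replicate C, adjusted p up to 0.221), LTBP2 (without any 1 AKTi library, DMSO replicate B or EZH2i replicate A or C, up to 0.22) and GDF9 (without replicate B or C of AKTi or of EZH2i, up to 0.23), the last 2 also in DESeq2.

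Genes around the pathway were taken from lists of antagonists, co-receptors and processing factors, intracellular regulators and target genes. Of 18 secreted antagonists, 4 were tested, and all of them rose with the combination (38.0% of all genes tested were higher). NBL1, a secreted BMP antagonist, rose by 2.42 ± 0.43, adjusted p = 5.63e-06, and FSTL1 and FSTL3, follistatin-like proteins, by 1.08 and 1.04. NBL1 held 23 counts over the DMSO arm, 16 with AKTi, 96 with EZH2i and 133 with the combination. It passed the filter through the arms in which it was high, so its rise was favoured by the filter. NOG, GREM1, CHRD and FST were among the 14 left out for low counts. The list median was 1.06 for the combination.

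Of 17 co-receptors and processing factors, 12 were tested, and 7 rose with the combination and none fell (73.2% of all genes called, 38.0% higher). The median was 1.10, or 0.58 with ITGB6 at its lower bound (3 counts over the DMSO arm), because ITGB6 had 0 counts in DMSO, 41 over the EZH2i arm and 4 over the combination. THBS1, a matrix protein that can release latent TGF-beta, was at 609 ± 54.8 normalized counts in DMSO and 11134 ± 302 with the combination (SD, n = 3), a log2 change of 4.19 ± 0.067, adjusted p = 1.29e-34. EZH2i alone gave 3.64 and AKTi 0.31. BAMBI, a decoy receptor, rose by 1.80 with EZH2i and 2.60 with the combination. FURIN, a protease that matures TGF-beta family precursors, rose by 1.98, and ITGB8 and NEO1 by 1.56 and 1.52. ITGB8 held 31 counts over the DMSO arm, 9 with AKTi, 77 with EZH2i and 98 with the combination. It passed the filter through the arms with EZH2i, which favours a rise.

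Of 5 further family members or receptors, 2 were tested. AMHR2, the receptor of anti-Müllerian hormone, rose by 1.61, and AMH itself fell by 0.89 with the combination. AMHR2 held 27 counts over the DMSO arm, 60 with AKTi, 39 with EZH2i and 92 with the combination. It passed the filter through the arms in which it was high, which favours a rise.

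The 21 intracellular regulators were all tested, and 13 rose and 4 fell with the combination (median 0.43) while 73.2% of all genes were called. PMEPA1, a TGF-beta-induced inhibitor of SMAD2 and SMAD3, rose by 2.80 ± 0.071, adjusted p = 9.05e-29, and SKIL and TGIF1, nuclear repressors of SMADs, by 1.52 and 1.06. STUB1, a ubiquitin ligase, fell by 1.22 with the combination.

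Of 17 genes that TGF-beta is known to induce, 11 were tested, and 10 rose with the combination and with EZH2i (medians 1.51 and 1.56), where 38.0% and 32.6% of all genes were higher. With AKTi 6 rose (20.6% of all genes higher) and 1, the cell cycle inhibitor gene CDKN1A, fell (-0.76 ± 0.071, adjusted p = 4.48e-11). FN1, encoding fibronectin, rose by 2.40 with the combination, and CDKN2B, a cell cycle inhibitor gene, by 1.86. The list holds LTBP2 and SMAD7, which are members, PMEPA1 and SKIL, which are also regulators, and COL1A1 and TAGLN, which are also on the stromal marker list whose summed level was higher in the arms with EZH2i. CTGF and TGFBI were among those left out for low counts.

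The 11 genes that BMPs are known to induce did not share a direction, with 3 higher and 3 lower with the combination (median 0.12; 38.0% and 35.2% of all genes), 5 and 2 with EZH2i (32.6% and 31.5%), and none higher and 4 lower with AKTi (20.6% and 21.9%). ID1, a classical BMP target, was at 1391 ± 114 normalized counts in DMSO and 711 ± 97.8 with the combination (SD, n = 3), a change of -0.96 ± 0.085, adjusted p = 1.05e-12. ID4, of the same family, rose by 2.18, and SMAD6 and SMAD7, both on this list, moved as described above. BAMBI, which is on this list and also among the co-receptors, rose from a mean of 478 normalized counts in DMSO to 2893 with the combination.

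**Figure D5:**
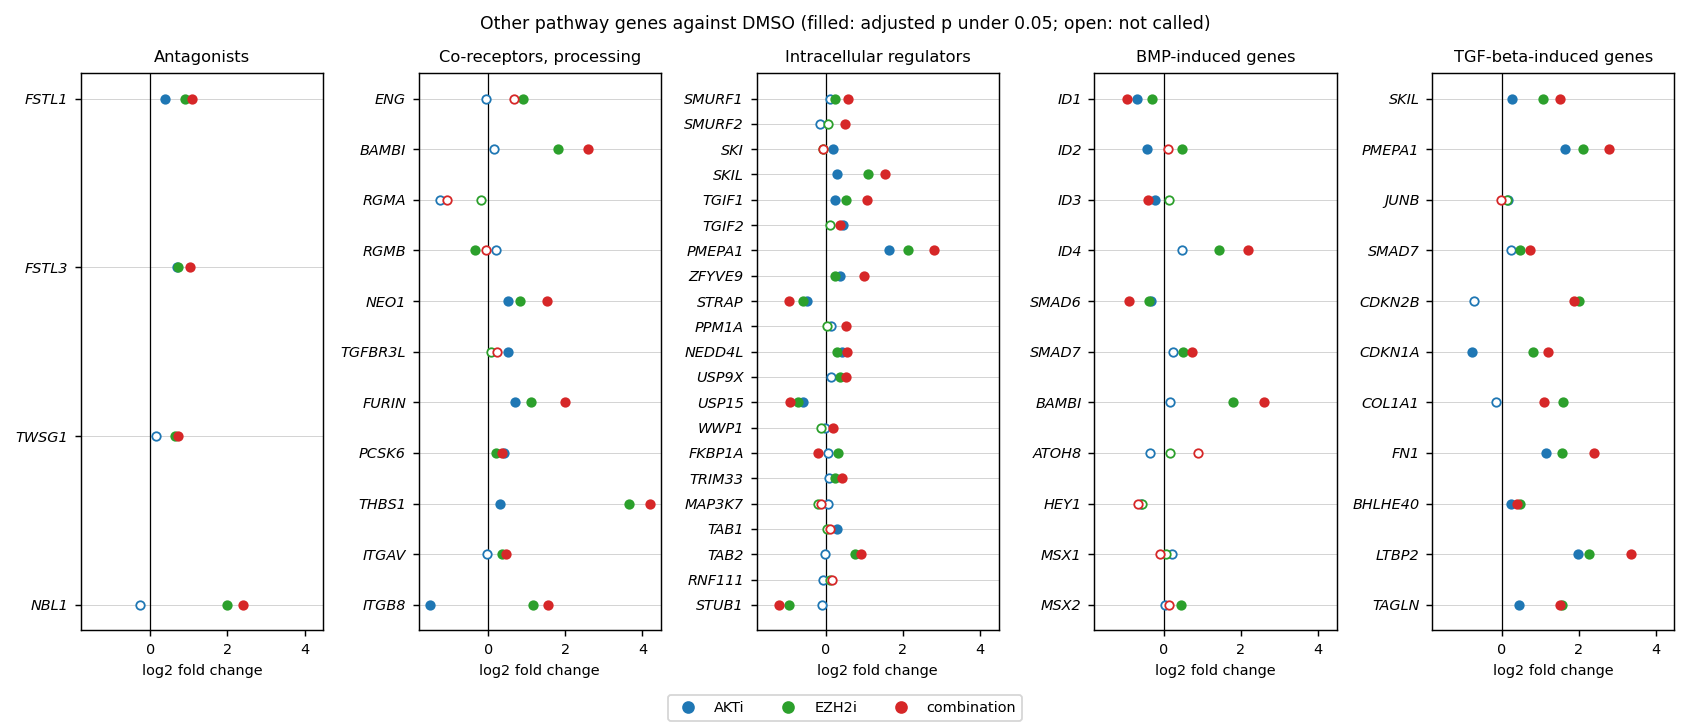
Log2 fold change against DMSO of the tested genes of 5 pathway lists for AKTi (blue), EZH2i (green) and the combination (red); filled points passed an adjusted p under 0.05, and ITGB6, at 0 counts in DMSO, is left out. The TGF-beta-induced genes lie mostly right of 0 with EZH2i and the combination, while ID1 and ID3 lie left of 0 with the combination.

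RefSeq promoter windows of 300 bases, 250 before and 50 after the start, were found for 45 of the 52 members. Member windows held a median of 28.0 CpG sites, against 14 over 27305 genes with a window. Tested members had 29.5 and untested ones 8.0. The 12 tested members that rose at least 2-fold with EZH2i had a median of 27.0, and the other 22 had 32.5. CACGTG occurred in 6 member windows (13.3%, against 7.43% of all), those of TGFB2, TGFB3, SMAD3, SMAD9, ACVR1B and SMAD1. GGCGCC occurred in 14 (31.1% against 18.97%). TGATGNAA, a stress-response composite site, occurred in 4.4% against 3.67%, and GTAAACA in 2.2% against 3.41%, on both strands. These are matches of letters and were read neither as bound sites nor as causes.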

How the data were processed

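PolyA RNA of 12 C4.2B libraries was sequenced by the study. Alignment to hg38 used STAR and gene-level counting used HTSeq, and the authors deposited the raw counts with gene lengths. A second table holds signal values that the authors normalized by DESeq2, which equalled count over size factor in a check of 56994 names (largest relative deviation 5.58e-10) and were not used further. Versions, annotation, strand setting and the sequencing run of each library are not given in the sources used here.

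Raw counts were analysed in R 4.3.3 with edgeR 4.0.16. Genes passing filterByExpr (minimum count 10, minimum total 15; 16646 genes) were scaled by TMM (factors 0.929 to 1.086) and tested by quasi-likelihood F tests with 1 mean per arm, Benjamini-Hochberg adjusted over all genes at 0.05. The SE is the absolute log2 fold change over the square root of F. A normalized count is a count scaled to the mean effective library size (16598836). At 14133755 to 22276417 counts per library, counting noise is small except for the members under about 20 counts. A 95% counting interval was computed where an arm mean was at most 3 counts, for TGFB1, INHBA and ACVR1C. It covers counting error only. TGFBR2, TGFB2, TGFB3, INHBE and BMP8A, also under 20 counts in some arms, were given no such interval. Libraries of an arm differed by more than sampling noise (chi-square per gene 2.574 to 7.773). The replicate letters did not pair libraries across arms (correlation of deviations -0.058 to 0.069).

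Members and gene lists were chosen with earlier results of these data known. Values in every library were given for members with an adjusted p under 0.05 and at least 2-fold change against DMSO or in the interaction (arm mean of at least 20), and for the highest member per length of each role. From a pathway list, called genes at 2-fold or more with the combination were named, at most 5; ID1, ITGB6, AMH and CDKN1A with AKTi were named after their values were seen. The EZH2i against AKTi contrast was added after the data were seen. Alternatives were DESeq2 1.42.0, other scalings and filters, fewer libraries, fits with a replicate block, and fits without each library in turn. The steps were tested on simulated data.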

Additional observations from a re-analysis of the deposited data

Results flagged for a closer look

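For 14 members the effect of AKTi differed according to whether EZH2i was present, by a test of the difference itself (the interaction in edgeR, adjusted p under 0.05). Of all genes tested, 28.2% were called in it. Values are the AKTi effect with EZH2i minus that without it, on the log2 scale. The difference was 4.02 for INHBE, which had low counts with either single agent, 1.77 for GDF15 and 1.18 for BMP7. It was 0.55 for ACVR2B, 0.55 for TGFBR1, 0.52 for ACVR2A, 0.47 for SMAD5, 0.43 for SMAD4, 0.36 for SMAD9 and 0.24 for SMAD2. It was -0.98 for LTBP4, -0.89 for LTBP2, -0.55 for BMP1 and -0.37 for BMPR2.

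AKTi moved ACVR2A, BMP7, GDF15, INHBE and SMAD5 in opposite directions without and with EZH2i. For BMP7, GDF15 and SMAD5 both effects were called, though the SMAD5 call with AKTi alone was lost in some alternatives. The share of all genes tested that did so was not counted. Such a switch is therefore not read as a trait of the members. GDF15 moved by -0.43 with AKTi alone and by 1.33 when AKTi was added to EZH2i. BMP7 moved by -0.74 and 0.44, SMAD5 by -0.18 and 0.29. INHBE moved by -3.14 and 0.88, the second of which was not called. ACVR2A moved by -0.07, not called, and 0.45. ORC4, which overlaps ACVR2A on the other strand, had an interaction of 0.53, and ACVR2B-AS1, which overlaps ACVR2B, had 0.96. Their part in those values was not tested.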

How the results depend on the processing

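No member changed direction with a call under any alternative. The number of members lower with the combination than DMSO was 5, and 3 (of 29 tested) when at least 10 counts were required in every library. The number lower with the combination than EZH2i was 2, and 1 by library size only, 1 by upper quartile and 1 to 3 with each library left out, with 1 without combination replicate A. A replicate block left 34 members called for the combination, 30 for EZH2i and 19 for AKTi, and changed no count; 4 of 12 libraries were closest to libraries of their own letter. Leaving out each library gave 32 to 34 members called for the combination, 29 to 32 for EZH2i, 16 to 19 for AKTi and 11 to 15 for the interaction. Called under every alternative were 31 of 34 members for the combination against DMSO, 28 of 30 for EZH2i, 14 of 19 for AKTi and 10 of 14 for the interaction. The members that lost a call somewhere were SMAD5, SMAD1 and INHBB for the combination, BMP8B and ACVR1C for EZH2i, SMAD5, ACVR1B, TGFBR1, SMAD6 and LTBP1 for AKTi, and SMAD2, SMAD9, BMP1 and ACVR2B for the interaction; the cause was not tested. Depth limits TGFB1, INHBA and ACVR1C, whose DMSO arms held 2, 5 and 7 counts.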

Other observations

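Untested members also held a few counts. ACVRL1, a type I receptor best known from endothelium, had 2, 1 and 0 counts in the DMSO libraries, 0, 1 and 0 with AKTi, 6, 7 and 0 with EZH2i and 2, 6 and 6 with the combination. INHBC, the subunit of activin C, had 2, 8 and 2 counts in the DMSO libraries, 4, 5 and 4 with AKTi, 5, 5 and 11 with EZH2i and 4, 3 and 11 with the combination. The remaining untested members with any count, BMP2, GDF5, GDF6, GDF7 and GDF10, had at most 5 counts in any library.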
